A study of Homo sapiens with 8 samples.

Results

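The genes described here are those of 5 insulin-like growth factor (IGF) binding proteins, IGFBP2, IGFBP3, IGFBP4, IGFBP6 and IGFBP7, of the receptors IGF1R, IGF2R and INSR, and of the docking proteins IRS1 and IRS2. They are 10 of the 58302 gene identifiers in the count table. They were chosen by name with the log2 fold changes of this comparison in view, so their values are a description and carry no test. RNA was sequenced from DLD1, a human colorectal cancer cell line, after stable lentiviral introduction of wild-type TRMT6 and TRMT61A (OE-WT) or of the empty vector (CTRL). TRMT6 and TRMT61A together form the enzyme that places N1-methyladenosine on transfer RNA, and the study asked whether raising it drives senescence and a secretory response. Each group had 2 libraries, and both groups were grown in RPMI medium with fetal bovine serum, itself a source of IGFs and binding proteins. The RNA came from a cleared lysate of cells treated with cycloheximide, a translation inhibitor, in both groups. The sources do not say whether each line was 1 clone or a pool, and the labels do not say whether the libraries of a group came from separate cultures. The paper's methods speak of 3 biological replicates per group, whereas 2 labelled libraries per group are analysed here, so whether the spread between them is biological or technical is not settled.

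IGF1, IGF2 and insulin act through 2 receptor tyrosine kinases, IGF1R and INSR, which phosphorylate the docking proteins IRS1 and IRS2 and so recruit PI3K and AKT. The binding proteins are secreted, hold IGFs outside the cell, and are released from them by proteolysis. IGF2R does not signal as a kinase: it carries IGF2 to lysosomes for degradation and sorts lysosomal enzymes that bear mannose 6-phosphate. Binding proteins are among the factors that senescent cells secrete, and IGF2 is a gene often gained or overexpressed in colorectal cancer.

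The OE-WT libraries held 10460284 and 10327498 counts and those of CTRL 12379671 and 12063433. Levels are given per 1000000 counts of the scaled library (CPM). The upper limit that a count of 0 allows, 3 counts, was 0.233 to 0.302 CPM and covers counting error only. OE-WT had 2092 and 1841 counts of TRMT6 against 677 and 683 for CTRL, and 1365 and 1327 of TRMT61A against 758 and 700, so both overexpressed genes were higher in the libraries labelled so. The epithelial label rests on the summed marker levels below, because genes with few reads also passed the filter on low counts. Of 11 colorectal epithelial markers 10 passed it, CEACAM5 at only 0.688 to 2.10 CPM, and the markers moved in both directions. By edgeR's test with Benjamini-Hochberg adjustment 3 were higher in OE-WT (KRT8, KRT18 and LGR5) and 4 lower (CDH1, KRT19, KRT20 and CEACAM5). Their sum, 12200 and 12545 CPM in OE-WT and 11133 and 10932 in CTRL, came mostly from the keratins KRT8 and KRT18. Marker lists of fibroblasts, endothelium, leukocytes and hepatocytes each had 1 gene past the filter and summed to at most 14.6 CPM in any library. By edgeR's test VWF (log2 fold change -1.65, adjusted p = 0.018) and SERPINA1 (-0.54, adjusted p = 0.021) were lower in OE-WT. COL1A1 and CD14 were not called. Any part of these marker differences in the values below was not tested. In bulk RNA, fewer cells of a type and less RNA per cell cannot be told apart.

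The starts of 9 of the 10 genes were matched in RefSeq's promoter table (GRCh38.p14), and the 250 bases before the start are shown for 4 of them. The start is that of the canonical transcript, whereas the gene spans given below take in all annotated transcripts. The windows of IGFBP2 and IGFBP3, and most of that of IGFBP6, therefore lie inside the spans of those genes. IGFBP2 and IGFBP4 are the abundant binding proteins with the lowest OE-WT values relative to CTRL, IGF2R is the most highly counted member, and IRS2 is a member whose groups nearly met. Capitals mark 3 motifs searched on both strands, the GC box GGGCGG, the TATA box TATAAA and the E-box CACGTG, and matches of one motif may overlap each other. The IGFBP2 stretch is chr2:216633170-216633419 (plus strand), that of IGFBP4 chr17:40443200-40443449 (plus), that of IGF2R chr6:159968832-159969081 (plus) and that of IRS2 chr13:109786584-109786833 (minus).
IGFBP2: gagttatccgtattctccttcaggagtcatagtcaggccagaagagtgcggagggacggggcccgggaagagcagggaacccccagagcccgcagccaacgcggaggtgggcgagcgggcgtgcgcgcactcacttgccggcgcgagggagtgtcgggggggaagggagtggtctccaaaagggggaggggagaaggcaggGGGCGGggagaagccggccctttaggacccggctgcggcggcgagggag
IGFBP4: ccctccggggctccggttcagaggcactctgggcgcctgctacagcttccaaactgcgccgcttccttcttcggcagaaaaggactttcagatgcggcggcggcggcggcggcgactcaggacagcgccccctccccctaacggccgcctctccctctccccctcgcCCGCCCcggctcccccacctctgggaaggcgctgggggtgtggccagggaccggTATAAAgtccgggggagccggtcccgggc
IGF2R: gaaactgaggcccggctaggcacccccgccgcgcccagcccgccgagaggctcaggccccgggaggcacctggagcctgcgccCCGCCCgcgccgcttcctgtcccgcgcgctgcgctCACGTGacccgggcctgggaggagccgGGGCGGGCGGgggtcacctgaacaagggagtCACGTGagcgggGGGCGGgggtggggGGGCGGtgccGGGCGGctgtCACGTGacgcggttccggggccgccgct
IRS2: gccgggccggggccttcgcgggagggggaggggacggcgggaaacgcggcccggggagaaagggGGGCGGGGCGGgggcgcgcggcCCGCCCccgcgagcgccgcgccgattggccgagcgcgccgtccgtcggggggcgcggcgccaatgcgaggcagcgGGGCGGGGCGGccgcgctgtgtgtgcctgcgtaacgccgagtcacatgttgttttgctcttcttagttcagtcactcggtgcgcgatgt

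All 9 matched genes held a GC box in this window, as did 42.6% of the 35116 promoters in the table. The IGFBP2 window had 1 GC box, 49 bases before the start, whereas IGF2R had 6 and IRS2 had 5. IGFBP4 had the TATA letters 29 bases before its start, a motif found in 10.7% of promoters. IGF2R had 3 E-boxes, 132, 74 and 28 bases before its start, and 6.35% of promoters had at least 1. The FOXO core GTAAACA, the letters bound by the transcription factors that insulin signalling restrains, was found in IGFBP6, 186 bases before its start, and in 2.98% of promoters. GC content of the 9 windows ran from 61.2% to 81.2%, against a median of 58% over the promoters in the table. A match describes letters only and is not evidence of binding.

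All 10 genes passed the filter, and all 10 had a fitted log2 fold change (OE-WT minus CTRL) below 0, with a median of -0.51 against 0.01 over the 14133 genes tested, although IGFBP3 and IRS2 turned to 0.0079 and 0.033 once a GC trend was removed from each library. In 9 of them both OE-WT libraries lay below both CTRL libraries, the exception being IGFBP3, and 30.2% of all tested genes were ordered in that way. By edgeR's quasi-likelihood test with a Benjamini-Hochberg adjusted p below 0.05 over all genes, 6 were lower (IGFBP2, IGFBP4, IGFBP6, IGF1R, IGF2R and IRS1) and 0 higher, beside 11.6% of tested genes lower and 9.44% higher. The thresholds of the study (p below 0.05 without adjustment, and a log2 fold change beyond 1 in size) were passed by 2 genes, IGFBP4 and IGFBP7, and by 2.25% of tested genes in the lower direction. Nothing is read from these counts, since the choice of genes used the same contrast. With 2 libraries against 2, an exact two-sided permutation test of a single gene cannot give a p below 0.333.

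**Figure D1:**
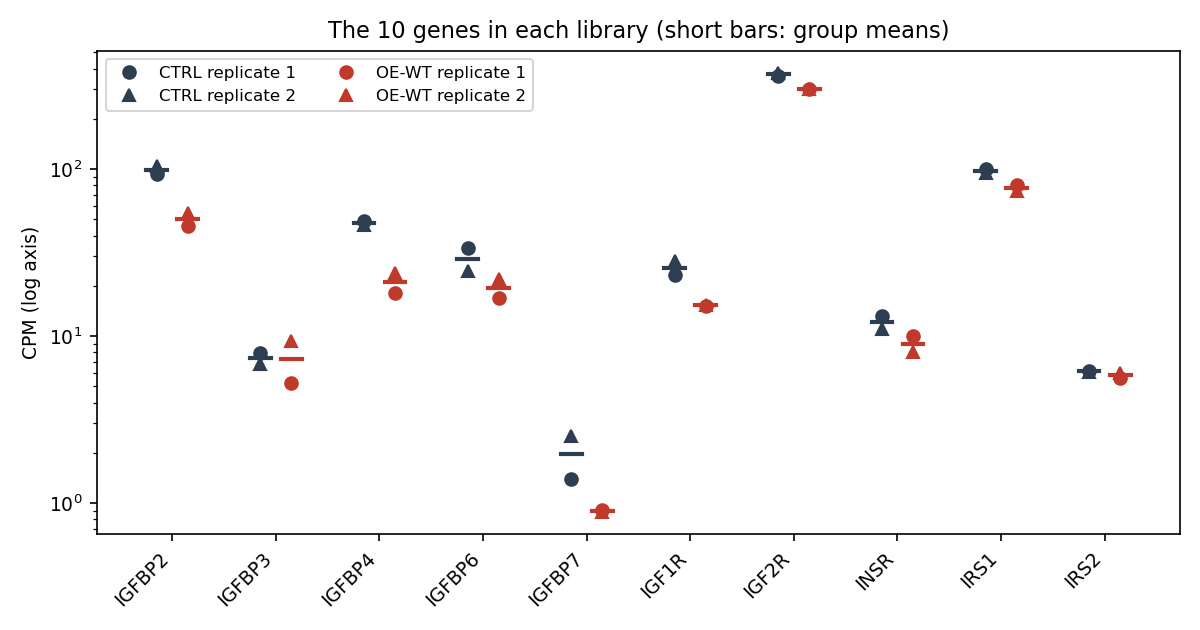
CPM of each of the 10 genes in the 2 OE-WT and 2 CTRL libraries, on a log axis, with 1 point per library and a short bar at each group mean. The OE-WT points lie below the CTRL points for every gene except IGFBP3, whose OE-WT libraries, at 5.24 and 9.34 CPM, lie on either side of the CTRL pair.

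Among the binding proteins, the transcripts of IGFBP2 and IGFBP4 stood at 0.512 and 0.442 of their CTRL levels, IGFBP6 was lower by a smaller margin, IGFBP7 was near the limit of counting, and IGFBP3 did not separate the groups. IGFBP2 (ENSG00000115457, chr2:216632828-216664436, plus strand) encodes a binding protein whose RGD motif also binds integrins. It measured 45.9 and 54.9 CPM in OE-WT and 93.4 and 104 CPM in CTRL. The means were 50.4 ± 6.36 and 98.5 ± 7.34 CPM (SD, n = 2 each), a log2 fold change of -0.96 (SE 0.085, 95% interval -1.14 to -0.79). The gap between the groups was wider than the gap within either.

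IGFBP4 (ENSG00000141753, chr17:40443450-40457725, plus strand) encodes a binding protein that mainly restrains IGF action until the protease PAPPA cleaves it. Its level was 18.1 and 23.9 CPM in OE-WT against 49.0 and 46.1 CPM in CTRL. With means of 21.0 ± 4.06 and 47.6 ± 2.08 CPM (SD, n = 2 each), the OE-WT level was 0.442 of the CTRL level, a log2 fold change of -1.18 (SE 0.11, 95% interval -1.40 to -0.95). This was the lowest ratio of the 10 genes, and both OE-WT libraries stood well under the CTRL pair.

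IGFBP6 (ENSG00000167779, chr12:53097436-53102345, plus strand) encodes a binding protein that prefers IGF2 over IGF1. The OE-WT libraries had 16.9 and 22.0 CPM and the CTRL libraries 33.7 and 24.6 CPM. The highest OE-WT library thus came close to the lowest CTRL library. The fitted log2 fold change was -0.58 (SE 0.14, 95% interval -0.87 to -0.29), and it was -0.34 when CTRL replicate 1 was left out, without which it was no longer among the 6 genes counted above.

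IGFBP7 (ENSG00000163453, chr4:57030773-57110385, minus strand) encodes a secreted protein that binds IGFs weakly and is known as a senescence-associated factor. It had 9 counts in each OE-WT library and 18 and 31 in the CTRL libraries, or 0.907 and 0.884 CPM against 1.40 and 2.52 CPM. The CTRL libraries differed from each other by 0.85 on the log2 scale, and the fitted log2 fold change of -1.11 had an SE of 0.41. Leaving out 1 library at a time gave values from -1.48 to -0.64, the last without CTRL replicate 2. Its exons share 260 bases with the opposite-strand gene POLR2B, a subunit of RNA polymerase II with 143 to 206 counts, and the strand setting of the counting is not given in the sources used here, so some reads may belong to either gene.

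IGFBP3 (ENSG00000146674, chr7:45912245-45921874, minus strand) encodes the main IGF carrier of the blood. It measured 5.24 and 9.34 CPM in OE-WT and 7.93 and 6.82 CPM in CTRL. The OE-WT replicates differed by 0.83 on the log2 scale, far more than the group means differed. These were 7.29 ± 2.90 and 7.37 ± 0.785 CPM (SD, n = 2 each). The interval of its log2 fold change, -0.46 to 0.43, was wide enough to hold a moderate change in either direction. Without OE-WT replicate 1 the fitted value was 0.34, and without OE-WT replicate 2 it was -0.50, so its direction was set by which library was kept. In 4 of the 5 binding protein genes, IGFBP7 being the exception, OE-WT replicate 2 was above OE-WT replicate 1.

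**Figure D2:**
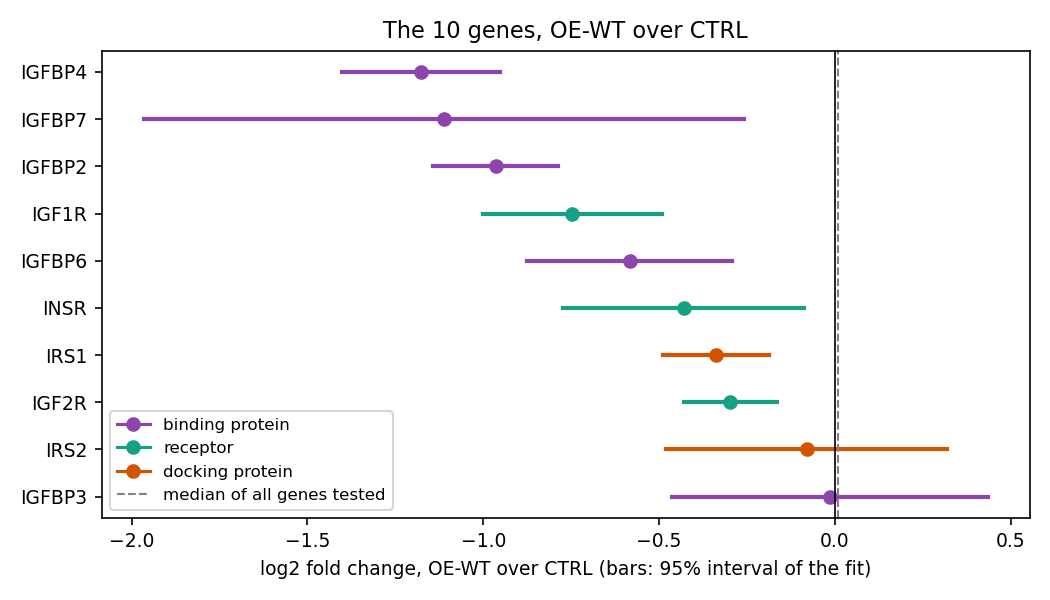
Fitted log2 fold change (OE-WT minus CTRL) of each gene as a point with its 95% interval, the dashed line marking the median of 0.01 over all genes tested. IGFBP4, IGFBP7 and IGFBP2 lie furthest below 0, IGFBP7 with the widest interval, while the intervals of IGFBP3 and IRS2 include 0.

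Levels of different genes were compared as CPM per kilobase of exon, which sets the transcripts on a scale per length. On this scale the binding protein transcripts IGFBP1 to IGFBP7 summed to 32.1 and 41.3 CPM per kilobase in OE-WT and to 69.5 and 63.9 in CTRL, a ratio of the means of 0.550. The sum was 36.7 ± 6.47 in OE-WT and 66.7 ± 3.95 in CTRL (SD, n = 2 each), and the groups did not overlap. Nearly all of it came from IGFBP2, IGFBP4 and IGFBP6. IGFBP4 made up 25.6% and 26.2% of the sum in OE-WT and 32.0% and 32.7% in CTRL. The share of IGFBP6 was 39.2% and 39.6% in OE-WT and 36.1% and 28.6% in CTRL. IGFBP3, whose own level overlapped between groups, was 3.57% and 4.95% of the smaller OE-WT sum and 2.50% and 2.34% of the CTRL sum. The share of IGFBP2, 30.2% and 28.1% against 28.3% and 34.3%, overlapped between the groups. IGFBP1 had 0 counts in every library and IGFBP5 at most 1, both under the counting floor.

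**Figure D3:**
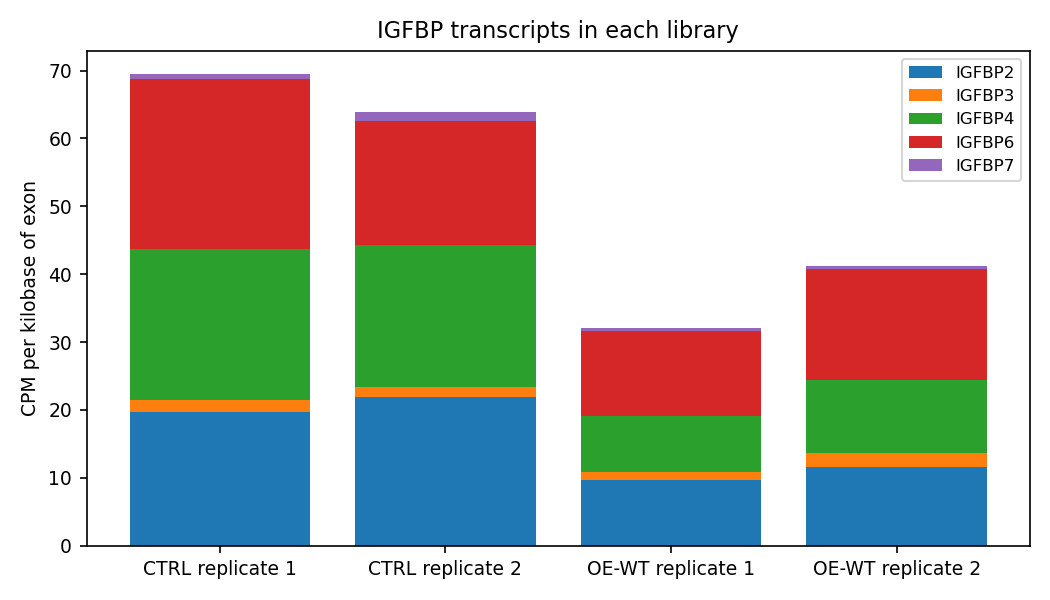
Stacked bars of CPM per kilobase of exon for IGFBP2, IGFBP3, IGFBP4, IGFBP6 and IGFBP7 in each library, starting at 0. The OE-WT bars reach 32.1 and 41.3 and the CTRL bars 69.5 and 63.9, with IGFBP2, IGFBP4 and IGFBP6 filling nearly the whole of each bar.

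Of the receptors, IGF1R showed the widest relative gap, IGF2R a narrow one with close replicates, and INSR one comparable with the spread of its replicates. IGF1R (ENSG00000140443, chr15:98648539-98964530, plus strand) encodes the kinase that carries most IGF1 and IGF2 signalling. The libraries had 15.2 and 15.3 CPM in OE-WT and 23.3 and 28.0 CPM in CTRL, a log2 fold change of -0.75 (SE 0.12). The OE-WT replicates were almost equal and both lay below the lower CTRL library.

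IGF2R (ENSG00000197081, chr6:159969082-160113507, plus strand) encodes the mannose 6-phosphate receptor described above. It had 2984 and 3064 OE-WT counts and 4651 and 4656 CTRL counts, the highest of the 10 genes. In CPM this was 301 in both OE-WT libraries and 362 and 378 in CTRL, a log2 fold change of -0.30 (SE 0.064, 95% interval -0.43 to -0.17). The OE-WT replicates differed by 0.0024 on the log2 scale and the CTRL replicates by 0.064. The first value is the smallest replicate difference of the 10 genes, and 2 libraries do not fix a spread. IGF2R shares 571 exon bases with the same-strand pseudogene CHP1P2, which had at most 8 counts.

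INSR (ENSG00000171105, chr19:7112255-7294414, minus strand) encodes the insulin receptor, which also binds IGF2 in one of its splice forms. Its libraries measured 9.97 and 8.06 CPM in OE-WT and 13.2 and 11.0 CPM in CTRL. The means, 9.02 ± 1.35 and 12.1 ± 1.54 CPM (SD, n = 2 each), gave a log2 fold change of -0.43 (SE 0.16, 95% interval -0.77 to -0.09). The gap between the nearest libraries of the groups was smaller than the gap within either group. Leaving out 1 library at a time gave -0.59 to -0.29.

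Of the docking proteins, IRS1 had the wider relative gap between the groups, and the groups of IRS2 nearly met. Whether their changes differ from each other was not tested. IRS1 (ENSG00000169047, chr2:226731312-226799820, minus strand), the first substrate described for these kinases, measured 80.7 and 74.5 CPM in OE-WT and 101 and 95.4 CPM in CTRL, a log2 fold change of -0.34 (SE 0.072, 95% interval -0.49 to -0.19). IRS2 (ENSG00000185950, chr13:109752695-109786583, minus strand), a second docking protein with a prominent role in insulin action, measured 5.64 and 5.99 CPM against 6.22 and 6.09 CPM. Its means of 5.82 ± 0.250 and 6.15 ± 0.0923 CPM (SD, n = 2 each) were ordered by group but close, with a log2 fold change of -0.08 (SE 0.19). The interval of -0.48 to 0.32 does not show that IRS2 was equal in both groups.

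Ordered by level per length in CTRL, IGFBP6 (21.7 ± 4.80 CPM per kilobase), IGFBP4 (21.6 ± 0.943) and IGFBP2 (20.8 ± 1.55) came first and were not separated by their replicates (SD, n = 2 each). IGF2R followed at 16.4 ± 0.513 and IRS1 at 9.78 ± 0.373, each clear of its neighbours. The remaining genes were far below IRS1, from IGF1R at 1.84 ± 0.238 and IGFBP3 at 1.61 ± 0.172, which overlapped, to INSR at 1.12 ± 0.142, IGFBP7 at 1.01 ± 0.409 and IRS2 at 0.754 ± 0.0113, where IGFBP7 overlapped both others. In OE-WT the order was IGFBP6 at 14.5 ± 2.67 and IGF2R at 13.3 ± 0.0159, which overlapped, then IGFBP2 at 10.6 ± 1.34 and IGFBP4 at 9.53 ± 1.84, which also overlapped, and IRS1 at 7.74 ± 0.438. IGF2R thus stood beside or above the binding proteins in OE-WT and below all 3 of them in CTRL. With the longest transcript in place of the union of exons, IGF2R had the highest mean in both groups, at 21.1 ± 0.0253 in OE-WT and 26.0 ± 0.816 in CTRL, so its rank depends on the length used. In OE-WT it then lay above IGFBP6 in both libraries, whereas in CTRL the ranges of IGF2R and IGFBP6 overlapped.

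Ratios of per-length levels within a library are given as a description, since the genes were chosen with this contrast in view. With 2 libraries against 2, non-overlap of a ratio has an exact two-sided permutation p of 0.333. IGF2R over IGF1R was 12.2 and 12.1 in OE-WT and 9.56 and 8.32 in CTRL, and the groups did not overlap. IRS1 over IRS2 was 11.6 and 10.1 in OE-WT and 13.2 and 12.8 in CTRL, again without overlap, though IRS2 had only 56 to 80 counts. The balance of the 2 signalling receptors, IGF1R over INSR, was 1.19 and 1.48 against 1.37 and 1.97, which overlapped. IGF2R over M6PR, the second mannose 6-phosphate receptor, was 0.308 and 0.270 in OE-WT and 0.342 and 0.386 in CTRL. IGFBP2 over IGFBP4 was 1.18 and 1.07 against 0.885 and 1.05, with the nearest libraries almost touching.

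Lists of 99 other genes of the pathway, none of them among the 10, were compared with the same fit. The lists were drawn up with earlier results of these data known, so their counts and shares are a description. Of the 79 that were tested, 5 were higher and 14 lower by edgeR's quasi-likelihood test with a Benjamini-Hochberg adjusted p below 0.05 over all genes, or 17.7% lower and 6.33% higher beside 11.6% and 9.44% of all tested genes, and their median log2 fold change was 0.03. The ligands were scarcely read: IGF2 had 10 and 16 OE-WT counts and 9 and 14 CTRL counts (log2 fold change 0.50, SE 0.43, adjusted p = 0.455 by edgeR), IGF1 had 1 to 3 counts and INS 0 in every library, and only IGF2 of these passed the filter. The transcripts of the binding proteins and receptors were therefore measured in cells with few ligand transcripts. IGF2 was at 0.700 to 1.57 CPM, above the counting floor, and IGF1 and INS were at or under it.

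In the list of related and binding-protein receptors 4 of 5 tested genes were lower, beside 11.6% of all tested genes, with a list median of -0.57. This too is a description, since the list was not chosen blind to these data. LRP1, an endocytic receptor that also binds IGFBP3, had 15.9 and 16.7 CPM in OE-WT and 34.4 and 32.7 in CTRL (log2 fold change -1.04, SE 0.11, adjusted p = 4.9e-07 by edgeR). ITGA5, the fibronectin receptor subunit to which the RGD motif of IGFBP2 can bind, had 55.8 and 64.3 against 101 and 98.8 CPM (log2 fold change -0.73, adjusted p = 7.1e-07). DDR1, a collagen receptor kinase that associates with IGF1R, had 399 and 408 against 602 and 594 CPM (log2 fold change -0.57, adjusted p = 1.7e-06). ITGB1, the partner of ITGA5, had a log2 fold change of -0.11 (adjusted p = 0.361). INSRR, the insulin receptor-related kinase, had 0 counts and was not among the tested genes. Of the proteases that release IGFs and of their inhibitors, 2 of 7 were tested, and STC2, an inhibitor of PAPPA, was lower at 1.41 and 1.67 against 4.35 and 3.57 CPM (log2 fold change -1.36, SE 0.29, adjusted p = 0.0020).

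Downstream of the receptors, 1 of 12 tested adaptors was lower, SH2B2, an adaptor of the insulin receptor, with 25 and 17 counts against 54 and 43 (log2 fold change -0.88, adjusted p = 0.030 by edgeR). Its call was lost under 4 of 11 alternatives. IRS4, a further docking protein, had 0 counts in every library. Of the PI3K and AKT genes 1 of 8 tested was lower, PIK3CD, a catalytic subunit of PI3K (log2 fold change -0.95, SE 0.19, adjusted p = 0.0014), while AKT1 was at 0.04 (SE 0.07, adjusted p = 0.752) and PIK3CA, with 5 to 12 counts, was not tested. Among 13 negative regulators, the phosphatase gene PTPRF fell from 585 and 565 to 371 and 371 CPM (log2 fold change -0.63, adjusted p = 4.4e-07), and SOCS3, a feedback inhibitor of cytokine and insulin signalling, was called lower on 4 and 8 against 19 and 21 counts (log2 fold change -1.40, SE 0.45, adjusted p = 0.031). The SOCS3 call held in 5 of the 9 alternatives that gave an adjusted p and was lost without OE-WT replicate 1, without either CTRL library and with the GC trend removed.

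FOXO1, a transcription factor that AKT keeps out of the nucleus, was higher in OE-WT at 13.4 and 11.3 against 7.62 and 9.34 CPM (log2 fold change 0.54, SE 0.16, adjusted p = 0.021 by edgeR). The FOXO1 call held in 7 of 11 alternatives, with log2 fold changes from 0.40 to 0.70. It was lost without OE-WT replicate 1 and without CTRL replicate 1, among others. FOXO3 was at 0.06 (adjusted p = 0.793). Of 13 tested genes listed as FOXO targets, 0 were higher and 2 lower, ERBB3, a receptor of the EGF receptor family, having the larger change (log2 fold change -0.74, adjusted p = 2.1e-07). In the sorting pathway that IGF2R serves, 2 of 18 genes were higher and 3 lower. SORT1, another sorting receptor of the Golgi, had 44.9 and 50.7 against 74.1 and 76.1 CPM (log2 fold change -0.65, adjusted p = 5.0e-06), whereas GNPTAB, a subunit of the enzyme that starts the mannose 6-phosphate tag, was higher at 9.87 and 11.5 against 7.85 and 6.01 CPM (log2 fold change 0.62, adjusted p = 0.015). M6PR was at 0.04 (SE 0.07, adjusted p = 0.753). IGF2BP3, which binds IGF2 messenger RNA, was higher by 0.59 (SE 0.17, adjusted p = 0.015). The calls of GNPTAB and IGF2BP3 held in 8 and 9 of 11 alternatives.

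The remaining 6 calls were smaller than 0.5 on the log2 scale and are named after their values were seen: PTPN1 and AP1B1 higher, and TMEM219, CITED2, NAGPA and GGA3 lower. All 5 higher calls were lost with DESeq2, at adjusted p of 0.106 to 0.135, and 9 of the 19 calls held in all 11 alternatives, those of STC2, LRP1, TMEM219, ITGA5, DDR1, PIK3CD, PTPRF, ERBB3 and SORT1.

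**Figure D4:**
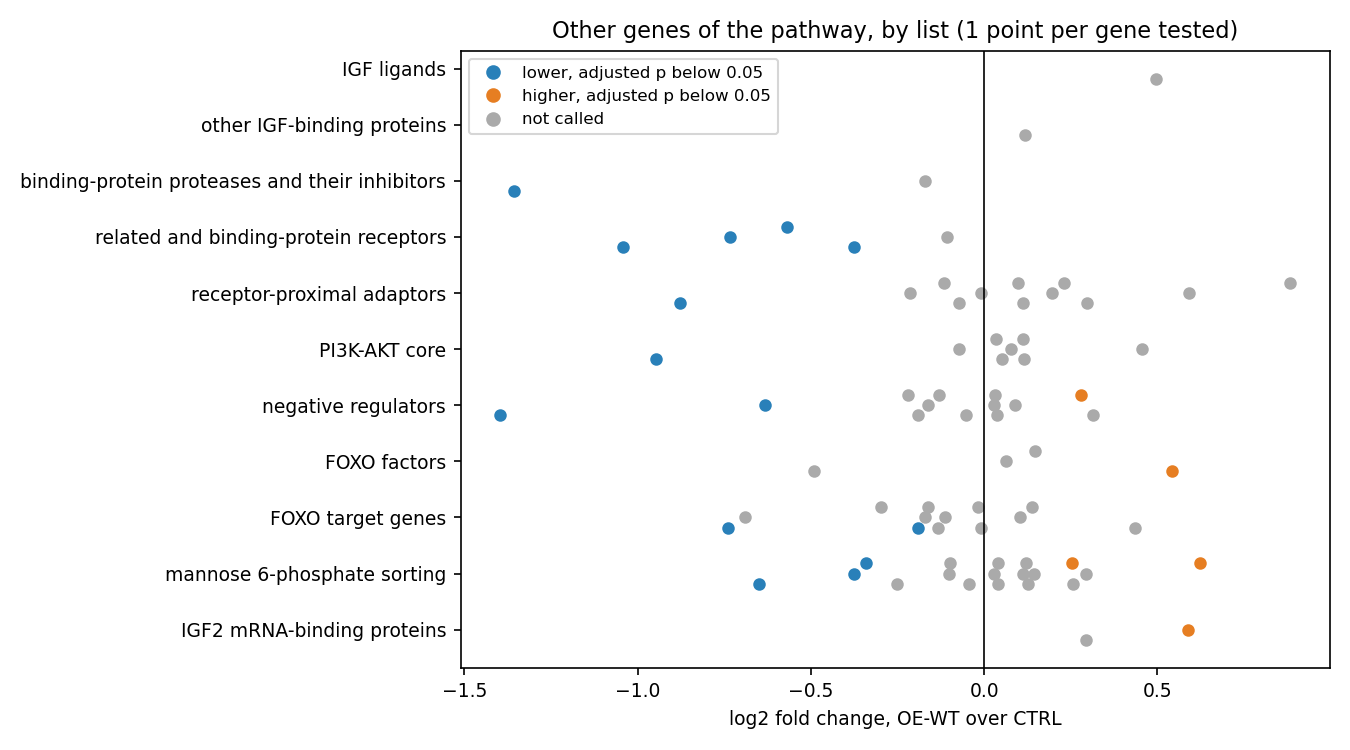
Fitted log2 fold change (OE-WT minus CTRL) of each of the 79 tested genes in the pathway lists, 1 point per gene, grouped by list and coloured by call at an adjusted p below 0.05. Of the 14 calls in the lower direction, 4 are among the 5 tested related and binding-protein receptors, and the 5 higher calls are spread over 4 lists.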

How the data were processed

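RNA sequencing of DLD1 cells gave 2 OE-WT and 2 CTRL libraries, each run in 2 lanes and deposited as 1 column of raw counts. Per the labels, RNA was poly(A)-selected for a stranded kit. The paper instead names ribosomal RNA removal and 3 biological replicates. The authors aligned reads with HISAT2 to GRCh38, and the deposited values are whole-number counts per gene. The submitters' processing notes name HISAT2 2.2.1 and featureCounts 2.0.0, whereas the paper names HTSeq. The paper names an Ensembl release for its ribosome profiling only. The annotation release behind these counts and the strand setting are not given in the sources used here.

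Symbols, coordinates and exon lengths came from GENCODE release 44, which matched 57532 identifiers. Counts were filtered with filterByExpr (minimum count 10), normalized by TMM and tested with edgeR 4.0.16 (R 4.3.3) by quasi-likelihood, p-values being adjusted by Benjamini-Hochberg over 14133 genes. The steps were tested on simulated data with 200 changed genes and a dispersion taken from the trend alone. The real comparison called 2976 genes, so the rates describe the simulated setting and may differ here. Of log2 changes of 0.5 and 1 in size, 44% and 77% were recovered, and 2.42% of calls were false. A gene not called is thus not shown to be unchanged. CPM used TMM-scaled library sizes. Standard errors and 95% intervals came from the fit and take no account of how the 10 genes were chosen. All 10 genes, TRMT6, TRMT61A, and pathway genes past an adjusted p of 0.05 with an absolute log2 fold change above 0.5, and 12 pathway genes whatever their result, were named. The genes and lists were chosen with earlier results of these data known. Alternatives were DESeq2 1.42.0, other scalings and filters, a replicate block, leaving out each library and, chosen after seeing the data, removal of a GC trend (lowess span 0.3). Promoters came from RefSeq.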

Additional observations from a re-analysis of the deposited data

How the results depend on the processing

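Over all tested genes, 2976 were called at an adjusted p below 0.05 by edgeR, 1377 by DESeq2 and 1903 (without CTRL replicate 1) to 2852 with 1 library left out. Scaling by library size alone shifted the median of all genes to -0.08 and gave 733 higher and 2451 lower calls against 1334 and 1642. Of the 10 genes 6 were called, and 6 to 8 under the alternatives, 8 with library size alone. Of the pathway genes 19 were called, 9 with DESeq2 and 12 (without OE-WT replicate 1) to 19 with 1 library left out.

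Of 108 refitted values of the 10 genes that had an adjusted p, 97 kept their direction and their side of the threshold. IGFBP3 changed sign when a GC trend was removed (0.0079) and ranged from -0.50 to 0.34 with 1 library left out, and IRS2 was at 0.033 without the GC trend. IGFBP6 lost its call without CTRL replicate 1, and 6 refits brought IGFBP7 or INSR past the threshold. IGFBP7 could not be tested with at least 10 counts in every library and had no adjusted p from DESeq2. The cause of these changes was not tested.

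The libraries share only a number: libraries with the same number deviated from their group means with a correlation of -0.068. With a replicate block, 2658 genes, 7 of the 10 genes and 19 pathway genes were called.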

Other observations

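Tensin genes, which encode adaptors between integrins and actin, lie on the chromosomes of 4 IGFBP genes, at distances from 18.1 to 1353 kilobases. The tensins were looked at after their values were seen. TNS1, 1135 kilobases from IGFBP2, had 31 and 34 OE-WT counts and 92 and 101 CTRL counts (log2 fold change -1.24, SE 0.21, adjusted p = 0.00023 by edgeR), beside -0.96 for IGFBP2. TNS2, 33.1 kilobases from IGFBP6, had 49 and 61 against 97 and 112 counts (log2 fold change -0.60, SE 0.19, adjusted p = 0.029), beside -0.58 for IGFBP6. TNS3, 1353 kilobases from IGFBP3, was at 0.04 (adjusted p = 0.722), beside -0.01 for IGFBP3. TNS4, 18.1 kilobases from IGFBP4, went the other way, with 4916 and 5192 against 4921 and 4389 counts (log2 fold change 0.44, SE 0.07, adjusted p = 4.6e-05), beside -1.18 for IGFBP4. The pairs give the values of 4 loci and were not tested as a pattern. Over the nearest tested protein-coding gene on each side of all 10 genes, 2 of 20 were lower (RPL37A and TNS1) and 2 higher (TOP2A and TNS4). Their median log2 fold change was -0.06, and of all tested genes 11.6% were lower and 9.44% higher. Genes that overlap 1 of the 10 were left out, and the nearest gene lay as far as 10358377 bases away (CENPC, from IGFBP7).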
